A study of Homo sapiens with 9 samples.

Results

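The genes described here are 9 genes of the matrix metalloproteinase and urokinase systems, chosen by name out of 58735 genes in the deposited table. They are the metalloproteinases MMP1, MMP2, MMP9 and MMP14, the metalloproteinase inhibitors TIMP1 and TIMP2, the plasminogen activators PLAU and PLAT, and the urokinase receptor PLAUR. They were followed in KHM-5M, a human thyroid cancer cell line, treated for 24 h with DMSO alone, with 0.3 μM YK-4-279 or with 1 μM YK-4-279, a small molecule described as an inhibitor of ETS transcription factors. There were 3 samples in each of the 3 groups, all from this single line, and no label says that they came from separate cultures, so the p-values measure the spread between these samples only. The same compound was used on these cells in Matrigel invasion assays, which is the reason to look at genes that act on the extracellular matrix.

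Matrix metalloproteinases are zinc enzymes that cut collagens and other matrix proteins and are made as inactive precursors. MMP14 is anchored in the cell membrane, where it cleaves collagen and, together with TIMP2, activates the precursor of MMP2. In the urokinase system, PLAU (urokinase) bound to its receptor PLAUR turns plasminogen into plasmin at the cell surface, PLAT (tissue plasminogen activator) does the same mainly on fibrin, and inhibitors of the serpin family hold these activators in check. Plasmin degrades fibrin and matrix proteins and can activate several MMP precursors. The promoters of PLAU and of several MMP genes are textbook targets of ETS and AP-1 factors.

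Each library held 16903251 to 18238884 counts, so that a gene without counts may still have had up to 3, which is 0.164 to 0.177 CPM (counts scaled to library size). This limit covers counting error only. Of the thyroid follicular markers, PAX8 was present at 21.6 to 27.7 FPKM (the authors' unit, counts scaled to gene length and library size), whereas TG had 0 to 4 counts, TSHR 0 to 2, SLC5A5 0 to 1, NKX2-1 0 to 10 and FOXE1 7 to 34. Of the epithelial markers, the keratins KRT8 and KRT18 were high, at 183 to 204 and 125 to 141 FPKM. The keratin KRT19, at 1.56 to 2.57 FPKM, and EPCAM, at 2.06 to 2.86, were far lower, and CDH1, which encodes E-cadherin, had 0 to 5 counts. The summed level of the 7 fibroblast markers was 49.2 to 66.6 FPKM in DMSO, 43.99 to 61.6 at 0.3 μM and 43.2 to 48.7 at 1 μM, carried mostly by COL1A1, with COL1A2 at 0 to 10 counts and DCN at 1 to 8. Within this list PDGFRB was lower at 1 μM (4.93 to 5.08 FPKM) than in DMSO (6.40 to 7.37), whereas LUM (3.46 to 4.68 against 2.73 to 3.35) and PDGFRA (0.134 to 0.172 against 0.0170 to 0.0662) were higher. The 5 leukocyte markers summed to 0.234 to 0.720 FPKM in DMSO and to 0.982 to 1.14 at 1 μM, with PTPRC at 0 to 1 count in every library and CD14 at 30 to 37 counts at 1 μM against 8 to 21 in DMSO. All 4 endothelial markers together stayed below 1 FPKM in each library, at 0.515 to 0.737. The part of these markers in the results below was not tested.

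In DMSO, 7 of the 9 genes were expressed well above the detection limit and MMP9 and MMP1 were near it. MMP14 was the most abundant per gene length at 83.4 ± 5.20 FPKM (SD, n = 3), followed by PLAU at 59.9 ± 2.53, TIMP2 at 49.2 ± 3.87, TIMP1 at 37.8 ± 3.04 and PLAUR at 30.3 ± 0.675. MMP2 at 6.29 ± 0.878 and PLAT at 3.99 ± 0.0748 FPKM were lower. MMP9, one of the gelatinases, and MMP1, the interstitial collagenase, stood at 0.170 ± 0.0822 and 0.0888 ± 0.0893 FPKM. Neighbours in this order did not overlap between the 3 DMSO samples, with the exception of MMP9 and MMP1. MMP14 made up 92.2% to 93.3% of the summed FPKM of the 4 MMP genes in DMSO. The order was the same when FPKM was replaced by TMM-scaled CPM per kb. After 1 μM it was kept as well, but PLAU at 85.6 ± 5.68 FPKM then overlapped MMP14 at 90.8 ± 3.19 FPKM.

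**Figure D1:**
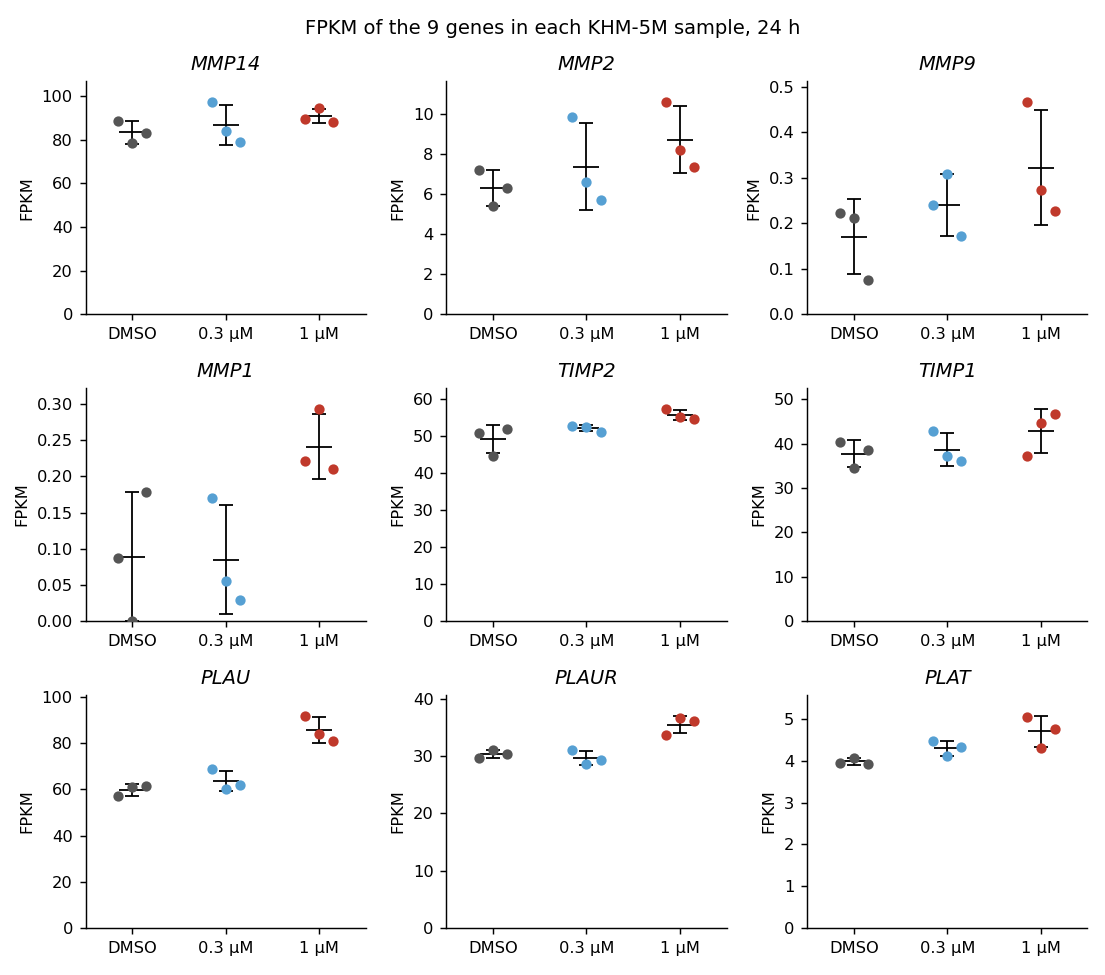
FPKM (authors' values, linear axes from 0) of each of the 9 genes in DMSO, 0.3 μM and 1 μM of YK-4-279; points are samples, horizontal bars means and whiskers SD (n = 3). All 3 samples at 1 μM lay above all DMSO samples for PLAU (80.9 to 91.9 against 57.0 to 61.6) and PLAUR (33.7 to 36.6 against 29.6 to 31.0), whereas MMP14 and TIMP1 overlapped.

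The first question was which of these genes differed from DMSO at 1 μM. Urokinase, its receptor and MMP2 rose, although the calls on the receptor and on MMP2 did not hold without certain single samples, and the abundant membrane protease MMP14 and both TIMPs did not pass the test. Of the 9 genes, 7 passed the filter on low counts and were tested, and 3 of these (PLAU, PLAUR and MMP2) had an adjusted p under 0.05 with edgeR, all higher than in DMSO. Over the 15617 genes tested, 17.6% were called, 7.67% higher and 9.95% lower. With the 1.5-fold cutoff that the study also applied, 0 of the 7 genes were called by edgeR, against 5.49% of all genes tested. At an unadjusted p under 0.05 there were 5 of the 7, against 31.9% of all. The median log2 fold change of the 7 genes was 0.21, against -0.01 over all genes tested, and all 7 values were above 0. The groups did not overlap, with 1 μM higher, for 5 of the 7 tested genes (MMP2, TIMP2, PLAU, PLAUR and PLAT), and 16.7% of all tested genes showed this separation upwards (35.8% in either direction).

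**Figure D2:**
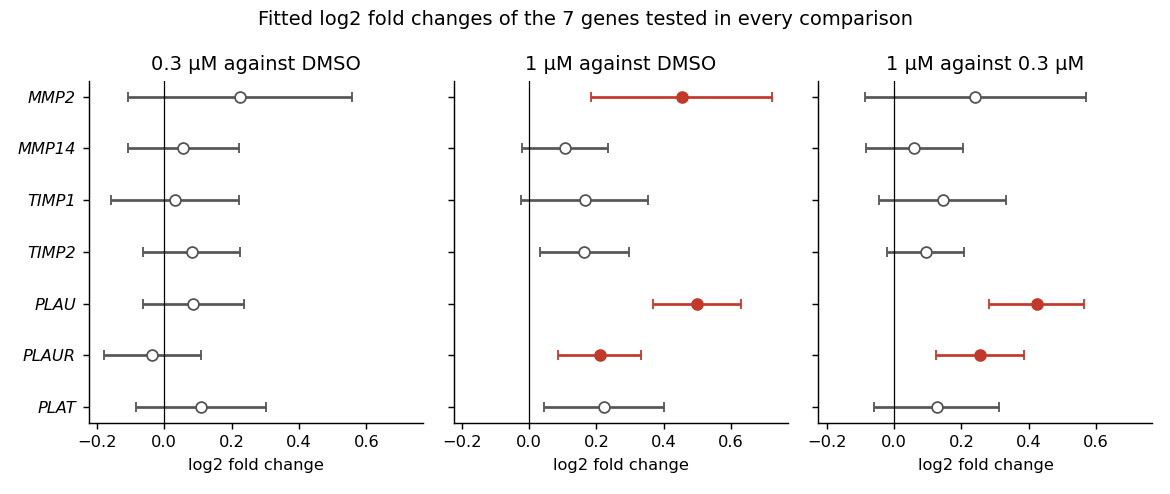
Fitted log2 fold changes (x axis) of the 7 genes tested in all 3 comparisons, with 95% confidence intervals from edgeR; filled red points have an adjusted p under 0.05. PLAU, PLAUR and MMP2 were called at 1 μM against DMSO, PLAU and PLAUR at 1 μM against 0.3 μM, and no gene at 0.3 μM against DMSO.

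PLAU (ENSG00000122861, GRCh38 chromosome 10 from 73909177 to 73917497) encodes urokinase, the secreted serine protease that activates plasminogen. It had 2912, 3270 and 3101 counts in the DMSO samples, 3628, 3225 and 3199 at 0.3 μM and 4987, 4292 and 4038 at 1 μM. All 3 samples at 1 μM were above the 6 others, and replicate 1 was the highest of each treated group. The log2 fold change at 1 μM against DMSO was 0.50 (standard error 0.06), or 1.41-fold, with an adjusted p of 0.000129. With any single sample left out it lay between 0.45 and 0.54 and was called each time. PLAU overlaps C10orf55 on the opposite strand, which had 16 to 25 counts.

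PLAUR (ENSG00000011422, chromosome 19 from 43646095 to 43670547) encodes the receptor that holds urokinase at the cell surface. Its counts were 2285, 2502 and 2310 in DMSO, 2466, 2310 and 2288 at 0.3 μM and 2764, 2822 and 2722 at 1 μM. Again the samples at 1 μM were above all others, although the shift was smaller than for PLAU. The log2 fold change was 0.21 (standard error 0.06), or 1.16-fold, with an adjusted p of 0.0216 from edgeR. The call was lost without replicate 3 of DMSO (adjusted p 0.0795), without replicate 2 of 1 μM (0.0855) and without replicate 3 of 1 μM (0.0932), while the fold change stayed between 0.19 and 0.25.

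Since PLAU and PLAUR were both called at 1 μM and again between the doses, bases before their start sites are shown. Promoter entries (RefSeq, GRCh38.p14) were found for 4 of the 9 genes, namely MMP14, PLAU, PLAUR and TIMP1. The 250 bases before each start were searched on both strands for the ETS core GGAA, the longer ETS motif CCGGAA, the AP-1 motif TGANTCA and an NF-kB motif. PLAU has 2 entries with different starts. The bases printed end just before the exon that begins there and lie in the first intron of a longer annotated transcript, at chr10:73910360-73910604 and chr10:73910882-73911103 (plus strand). For PLAUR (minus strand), whose window lies in an annotated first exon, 30 bases are printed around the AP-1 match, chr19:43670337-43670366, and around a pair of ETS cores, chr19:43670288-43670317. All are written 5′ to 3′, and capitals mark GGAA, its reverse complement TTCC and the AP-1 match.
PLAU upstream start: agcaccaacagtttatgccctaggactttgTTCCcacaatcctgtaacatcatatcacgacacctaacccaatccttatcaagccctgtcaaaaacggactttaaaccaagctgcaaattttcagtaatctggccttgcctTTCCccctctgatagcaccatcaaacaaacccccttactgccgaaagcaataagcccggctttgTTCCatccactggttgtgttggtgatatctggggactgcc
PLAU downstream start: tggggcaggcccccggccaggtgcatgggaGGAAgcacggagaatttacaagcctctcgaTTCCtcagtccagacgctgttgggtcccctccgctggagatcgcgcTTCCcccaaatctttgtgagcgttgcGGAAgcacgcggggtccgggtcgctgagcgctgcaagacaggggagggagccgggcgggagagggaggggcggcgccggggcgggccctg
PLAUR AP-1 match: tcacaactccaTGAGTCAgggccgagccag
PLAUR ETS cores: ccgcgccccgGGAAgGGAAgtttgtggcgg

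The ETS core occurred 3 times before the upstream start of PLAU and 4 times before its downstream start, before the start of PLAUR, before that of MMP14 and before that of TIMP1. These counts are near the median of 3 matches over 35116 promoters, of which 92.7% hold at least 1. CCGGAA was found in none of these windows (14.5% of all promoters hold it) and the NF-kB motif in none (5.07%). TGANTCA was found once, before PLAUR (6.57% of all promoters). Bases further from the starts than these windows were not searched, so motifs there would be missed. Any part of these matches in the changes of PLAU and PLAUR was not tested. A match describes the letters only.

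PLAT (ENSG00000104368, on chromosome 8) encodes the other plasminogen activator, tissue-type, and was expressed at a much lower level than PLAU. It had 454, 489 and 444 counts in DMSO, 529, 494 and 502 at 0.3 μM and 614, 494 and 535 at 1 μM. In CPM the samples at 1 μM were above those in DMSO. Its log2 fold change of 0.22 (95% confidence interval 0.05 to 0.40) did not pass the threshold, with an adjusted p of 0.0791 by edgeR, and it was called at the unadjusted p (0.0176) but by no alternative that adjusts p.

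MMP2 (ENSG00000087245, chromosome 16 from 55389700 to 55506691) encodes gelatinase A, which cuts type IV collagen of basement membranes. It had 613, 485 and 529 counts in DMSO, 866, 588 and 490 at 0.3 μM and 959, 700 and 614 at 1 μM. Replicate 1 was the highest sample of each of the 3 groups in CPM, a pattern that MMP2 alone among the 9 genes showed and that 4.93% of 16124 genes shared. The log2 fold change at 1 μM was 0.45 (standard error 0.13), with an adjusted p of 0.0227 by edgeR. Without replicate 1 of 1 μM it was 0.30 with an adjusted p of 0.105. The call was also lost without replicate 3 of DMSO (0.45, adjusted p 0.0741) and when all 9 samples entered a single fit (0.46, adjusted p 0.0563).

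MMP14 (ENSG00000157227, chromosome 14 from 22836557 to 22849027) is the membrane-anchored protease that activates MMP2 precursor. Its counts were 6866, 6352 and 6314 in DMSO, 7755, 6814 and 6178 at 0.3 μM and 7351, 7295 and 6675 at 1 μM. The groups overlapped, and the highest value of all was in a sample at 0.3 μM. At 1 μM its log2 fold change was 0.11 (95% confidence interval -0.02 to 0.23, adjusted p 0.244 by edgeR), so that a rise beyond 0.23 or a fall beyond 0.02 lies outside the interval.

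MMP1 and MMP9 were too low to pass the filter at 1 μM against DMSO. MMP1 (ENSG00000196611, chromosome 11 from 102789920 to 102798160) had 3, 0 and 6 counts in DMSO, 6, 2 and 1 at 0.3 μM and 8, 10 and 7 at 1 μM. The sums of 25 counts at 1 μM and 9 in DMSO gave a ratio of 2.72, with an exact binomial 95% interval of 1.23 to 6.63 that covers counting error only. MMP9 (ENSG00000100985, chromosome 20 from 46008908 to 46016561) had 9, 9 and 3 counts in DMSO, 10, 13 and 7 at 0.3 μM and 20, 11 and 9 at 1 μM. Here the ratio of 40 to 21 counts was 1.87 (1.08 to 3.33). In a fit without the filter neither was called, with adjusted p of 0.256 for MMP1 and 0.329 for MMP9. MMP1 overlaps WTAPP1 (1 to 7 counts) and MMP9 overlaps SLC12A5-AS1 (6 to 23 counts), both on the opposite strand and as abundant as the genes themselves. The sources differ on whether the library kit kept strand, so these values are uncertain.

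The TIMPs bind the active site of MMPs and block it. TIMP2 (ENSG00000035862, chromosome 17 from 78852977 to 78925387), which also takes part in MMP2 activation, had 4963, 4574 and 4992 counts in DMSO, 5301, 5358 and 5050 at 0.3 μM and 5940, 5387 and 5216 at 1 μM. In CPM the samples at 1 μM were above those of both other groups, by little. The log2 fold change at 1 μM was 0.16 (standard error 0.06), with an adjusted p of 0.0839 by edgeR; DESeq2 (adjusted p 0.0429) and edgeR without the low count filter (0.0215) called it. TIMP1 (ENSG00000102265, chromosome X from 47582313 to 47586789) had 1075, 961 and 1015 counts in DMSO, 1179, 1037 and 971 at 0.3 μM and 1056, 1189 and 1217 at 1 μM. The groups overlapped, and the log2 fold change of 0.16 (standard error 0.09) had an adjusted p of 0.219.

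**Figure D3:**
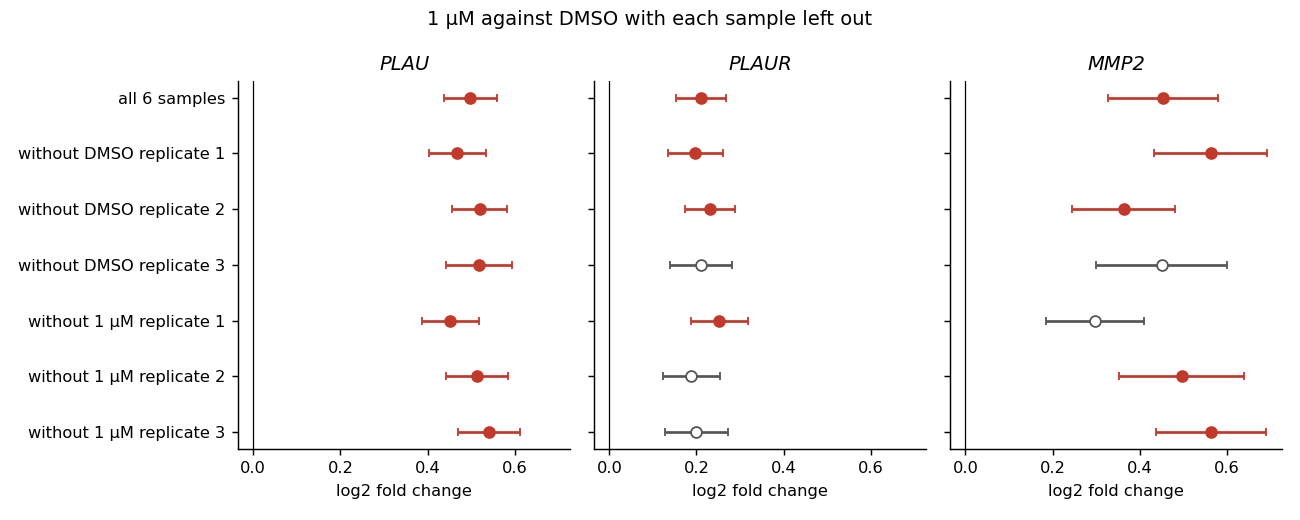
Log2 fold change at 1 μM against DMSO (x axis) of PLAU, PLAUR and MMP2 in edgeR with all 6 samples and with each sample left out; whiskers are standard errors and filled red points have an adjusted p under 0.05. PLAU stayed between 0.45 and 0.54 and was called in each fit, PLAUR stayed between 0.19 and 0.25 and MMP2 ranged from 0.30 to 0.56.

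At 0.3 μM, the dose used in the invasion assays, no change of these genes was detected. Incubation in those assays was shorter than the 24 h here, and they counted cells, not RNA. Of the 7 genes tested, 0 were called by edgeR, 0 had an unadjusted p under 0.05 and 0 were called by DESeq2. Over all 15762 genes tested the share called was 0.00%, with 3.77% at an unadjusted p under 0.05. PLAU had a log2 fold change of 0.09 (95% confidence interval -0.06 to 0.24), PLAUR of -0.03 (-0.18 to 0.11), MMP14 of 0.06 (-0.11 to 0.22) and TIMP2 of 0.08 (-0.06 to 0.23). The interval of MMP2 was wider, at 0.22 (-0.11 to 0.56), and without replicate 1 of 0.3 μM its value was -0.039. The groups overlapped for all 9 genes, while 8.43% of all tested genes did not overlap (3.16% with 0.3 μM higher). Fits of 0.3 μM and of 1 μM against DMSO share the DMSO samples.

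The doses were then compared directly, without the DMSO samples. PLAU and PLAUR were higher at 1 μM than at 0.3 μM, and these were the 2 genes called by edgeR among 8 tested (MMP9 passed the filter here). Of 15583 genes tested, 12.6% were called, 5.85% higher and 6.75% lower. With the 1.5-fold cutoff 0 of the 8 genes were called, against 3.20% of all, and at an unadjusted p under 0.05 there were 2, against 27.6% of all. The groups did not overlap for 3 of the 8 (TIMP2, PLAU and PLAUR, all higher at 1 μM), against 15.3% of all genes in that direction and 31.4% in either. The log2 fold change of PLAU was 0.42 (standard error 0.07, adjusted p 0.000679 by edgeR), with 3 of 3 samples at 1 μM above all at 0.3 μM. That of PLAUR was 0.26 (standard error 0.06, adjusted p 0.0129 by edgeR), also with 3 of 3 samples above. The PLAUR call was lost without replicate 2 of 0.3 μM (adjusted p 0.0583), replicate 2 of 1 μM (0.0563) or replicate 3 of 1 μM (0.0705). MMP2, with 0.24 (standard error 0.16), was not called with all samples but was called without replicate 1 of 0.3 μM (0.51, adjusted p 0.0208). MMP9 had 0.43 (95% confidence interval -0.49 to 1.34).

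Ratios within a sample show how the genes moved relative to each other. The FPKM ratio of PLAU to its receptor PLAUR was 1.93, 1.97 and 2.03 in DMSO, 2.22, 2.11 and 2.11 at 0.3 μM and 2.73, 2.30 and 2.24 at 1 μM. It was therefore higher in every treated sample than in every DMSO sample, although neither gene was called at 0.3 μM. How many other gene pairs separate in this way was not computed. By contrast, the ratio of MMP14 to TIMP2, at 1.60 to 1.75 in DMSO and 1.56 to 1.71 at 1 μM, overlapped between the groups. The ratio of PLAU to TIMP2 was 1.12 to 1.37 in DMSO and 1.48 to 1.60 at 1 μM. At 0.3 μM it was 1.15 to 1.31 and overlapped DMSO. With 3 samples against 3, an exact permutation test of such a ratio cannot give a two-sided p below 0.1, so these are given as values.

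Other genes of the same systems were listed by function. Among 23 other MMPs and inhibitors, 11 were tested at 1 μM and 1 was called, against 17.6% of all genes tested. The gene called was TIMP3, the matrix-bound inhibitor, which fell. It had 20819, 20649 and 20571 counts in DMSO, 20293, 21090 and 24557 at 0.3 μM and 17778, 17077 and 17159 at 1 μM, and the samples at 1 μM were below all others. The log2 fold change was -0.27 (standard error 0.05, adjusted p 0.00244) against DMSO and -0.32 (standard error 0.07, adjusted p 0.00546) against 0.3 μM. At 257 ± 8.22 FPKM in DMSO, TIMP3 was more abundant than any of the 9 genes, and it fell to 215 ± 5.19 at 1 μM. BSG (EMMPRIN, an inducer of MMPs) and RECK, a membrane inhibitor of MMPs, had log2 fold changes of -0.01 each, with adjusted p of 0.907 and 0.939. MMP7, MMP12, MMP26 and MMP27 had 0 counts in all 9 samples.

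Of 17 other plasminogen system genes, 11 were tested at 1 μM and edgeR called 0, against 17.6% of all genes tested. DESeq2 called 1 (S100A10). In edgeR 2 (S100A10 and SERPINE2) had an unadjusted p under 0.05, against 31.9% of all genes tested. SERPINE2, a serpin that inhibits urokinase, had a log2 fold change of 0.24 (adjusted p 0.141). The plasminogen receptor genes S100A10 (0.14, adjusted p 0.0947), ANXA2 (0.02), ENO1 (0.04) and PLGRKT (-0.14) were not called by edgeR, and neither was LRP1 (-0.00052), the endocytic receptor of protease and inhibitor complexes, which overlaps STAT6 on the opposite strand. PLG, the gene of plasminogen itself, had 0 counts in all 9 samples.

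**Figure D4:**
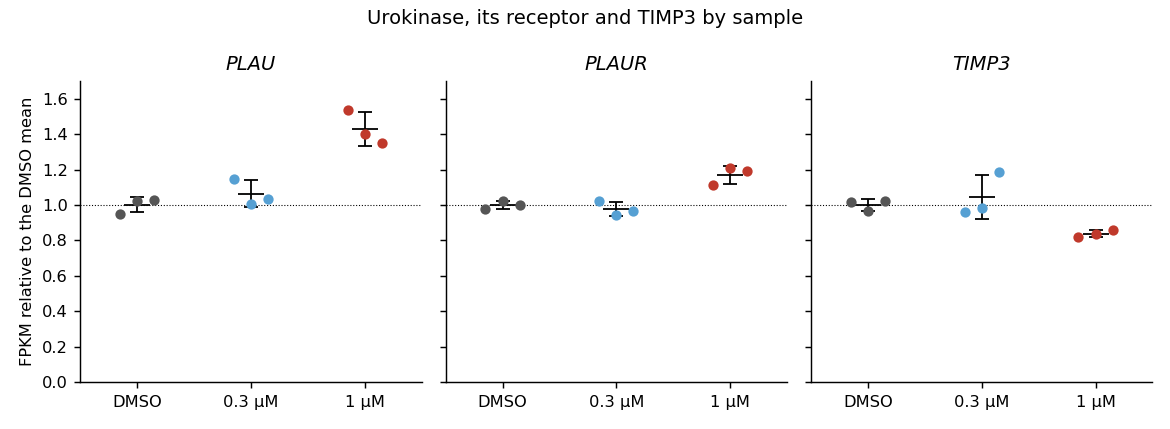
FPKM of PLAU, PLAUR and TIMP3 in each sample divided by the DMSO mean of that gene (dotted line at 1); points are samples, horizontal bars means and whiskers SD (n = 3). PLAU and PLAUR lay above all DMSO samples at 1 μM and TIMP3 below them.

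SERPINB2, a serpin that also inhibits urokinase, did not pass the filter and was chosen after its values were seen. It had 1, 0 and 0 counts in DMSO, 0, 1 and 0 at 0.3 μM and 11, 16 and 4 at 1 μM. The ratio of 31 counts at 1 μM to 1 in DMSO was 30.4, with an exact binomial 95% interval of 5.06 to 1239 for counting error. In the fit without the filter its adjusted p was 0.000338 by edgeR. That fit called 3135 of 32131 genes at 1 μM against DMSO.

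Among 20 other surface and secreted proteases, 16 were tested and 3 were called at 1 μM, all higher. ADAM12, a membrane metalloproteinase, had 117, 98 and 87 counts in DMSO and 163, 153 and 148 at 1 μM, a change of 0.60 on the log2 scale (standard error 0.15, adjusted p 0.0117 by edgeR). The lysosomal protease genes were CTSS, with 61, 70 and 42 counts in DMSO and 77, 119 and 98 at 1 μM (0.75, standard error 0.22, adjusted p 0.0325), and CTSD, with 2103, 1981 and 1966 against 2416, 2697 and 2377 (0.29, standard error 0.07, adjusted p 0.0124). The ADAM12 call was lost without replicate 3 of DMSO (adjusted p 0.0586), that of CTSS without replicate 3 of DMSO (0.133) or replicate 2 (0.145) or 3 (0.0801) of 1 μM, and that of CTSD without replicate 3 of DMSO (0.0529) or replicate 2 of 1 μM (0.0666). Over the 3 lists, 4 of 38 tested genes (10.5%) were called, against 17.6% of all genes, and their median log2 fold change was 0.03. At 0.3 μM, 0 of 39 were called by edgeR (0.00% of all genes tested) and 0 by DESeq2. In edgeR 2 (LRP1 and CTSD) had an unadjusted p under 0.05, against 3.77% of all genes tested.

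**Figure D5:**
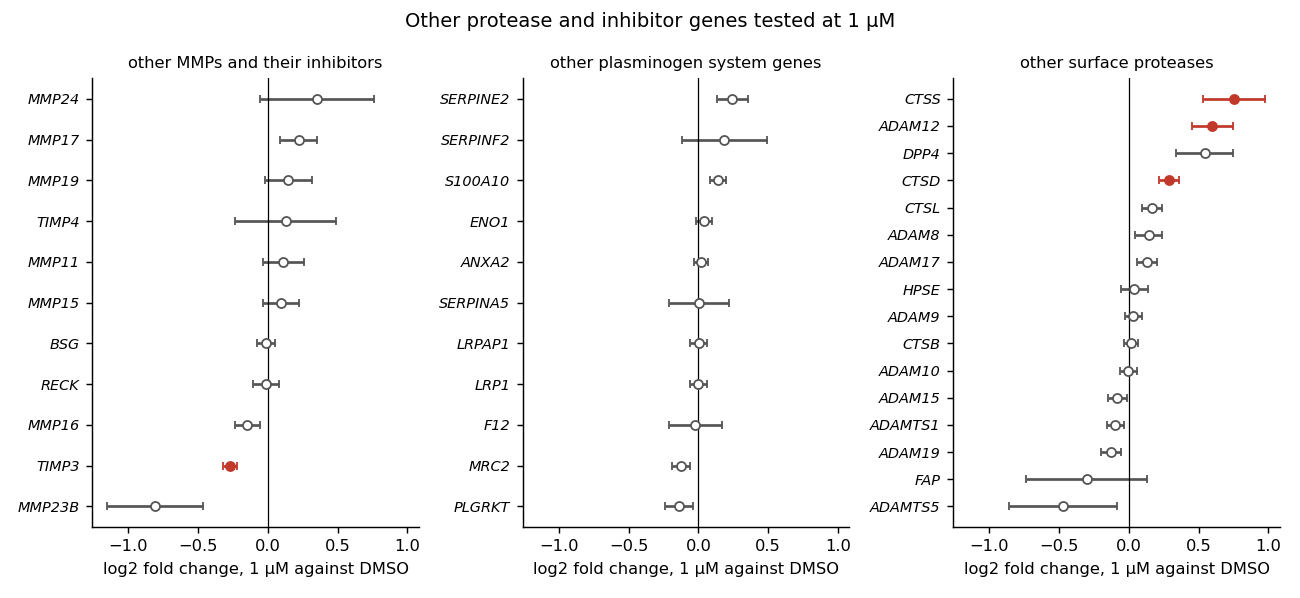
Log2 fold change at 1 μM against DMSO (x axis) with standard errors from edgeR for the 38 tested genes of the 3 lists; filled red points have an adjusted p under 0.05. CTSS (0.75), ADAM12 (0.60) and CTSD (0.29) were called higher and TIMP3 (-0.27) lower.

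For the 3 genes called at 1 μM, the genes with the most similar pattern over the 9 samples were found by Pearson correlation of log2 CPM among 14171 genes. PLAU was most like OSMR (r = 0.99), the receptor of oncostatin M, and F2RL2 (r = 0.99), a protease-activated receptor. PLAUR was most like CYB561D2 and TMX2 (r = 0.98 each). MMP2 was most like FN1 (r = 0.97), which encodes fibronectin, and AMPD3 (r = 0.95). These are descriptions over 9 libraries that fall into 3 groups. Between the genes themselves, with MMP1 left out, the highest correlations were those of PLAU with PLAUR (0.87), MMP2 with MMP14 (0.86) and PLAU with PLAT (0.84). The lowest was that of MMP9 with TIMP1, at 0.03.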

How the data were processed

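RNA of KHM-5M cells, exposed to vehicle or either dose of YK-4-279 over 24 h, was sequenced in 3 samples per group. Per the methods, adaptors and reads of low quality were taken out by the authors before alignment to GRCh38 with Hisat2. The methods name HTseq for counting, whereas the submitters' processing notes list HISAT2 2.0.5, featureCounts 1.5.0-p3 and DESeq2 1.20.0. The methods name a stranded library kit and the labels a kit without that word. The methods also call the replicates biological, but give fewer of them than the 3 in the labels. The deposited counts are whole numbers per gene without normalization, and the authors' FPKM values divide them by gene length and library size. Columns with the authors' group means, fold changes and p-values were not used.

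From the counts, edgeR 4.0.16 (filterByExpr with a minimum count of 10, TMM, glmQLFit, glmQLFTest, R 4.3.3) was run on the whole table for the 2 groups compared. P-values are two-sided and were adjusted over all tested genes by the method of Benjamini and Hochberg, and a gene was called at an adjusted p under 0.05. Standard errors are the fold change divided by the root of the F statistic, and confidence intervals use the fit's degrees of freedom. Log2 CPM for correlations used a prior count of 2. Replicates of each group differed beyond counting error (chi-square over its degrees of freedom, 3.20 to 10.7). The scripts were tested on simulated counts.

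Named are the 9 genes, listed genes with an adjusted p under 0.05 in any comparison, TIMP3, SERPINE2, RECK and BSG, and the 2 genes most like each gene called at 1 μM (mean expression of 1 CPM or more). Other names are examples chosen after their values were seen. The members and lists were chosen with earlier results of these data known. Some listed genes are not reported here and were left out of the lists, though not of the fits. Alternatives were DESeq2 1.42.0, RLE size factors, no filter beyond a total count of 1, a joint fit of the 9 samples, a replicate block, leaving out each sample, the fold cutoff and the unadjusted p.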

Additional observations from a re-analysis of the deposited data

Results flagged for a closer look

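The test of 1 μM against 0.3 μM marked 5 genes whose response differed between the doses. They were 2 of the 8 tested genes of the main list (25%) and 3 of 39 tested other genes (7.69%). Of all 15583 genes tested, 12.6% were called. PLAU (log2 fold change 0.42), PLAUR (0.26), ADAM12 (0.59) and CTSS (0.77) were higher at 1 μM, and TIMP3 (-0.32) was lower, each with an adjusted p under 0.05 by edgeR. The calls on PLAU and TIMP3 held with any single sample left out. Those on PLAUR, ADAM12 and CTSS did not, with adjusted p of up to 0.0705, 0.0670 and 0.146.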

How the results depend on the processing

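The order of the 9 levels was the same under both units. Of the 9 genes, 3 were called at 1 μM, 0 at 0.3 μM and 2 between the doses; with the fold cutoff these became 0, 0 and 0, and with the unadjusted p 5, 0 and 2. Of the listed other genes, 4, 0 and 3 were called, which became 2, 0 and 1 with the fold cutoff and 9, 2 and 8 with the unadjusted p, and between the doses 5 without the low count filter. Tested were 7, 7 and 8 of the 9 genes and 38, 39 and 39 of the listed genes. Over all genes tested, 17.6%, 0.00% and 12.6% were called. With the fold cutoff these shares were 5.49%, 0.00% and 3.20%, and with the unadjusted p 31.9%, 3.77% and 27.6%. With each sample left out, the counts for the 9 genes were 1 to 3 at 1 μM, 0 at 0.3 μM and 1 to 3 between the doses, and those for the other genes 2 to 6, 0 and 1 to 4. The lowest member count at 1 μM came without replicate 3 of DMSO, where 1683 genes were called in all against 2752. Between the doses 1963 genes were called in all, and 948 to 1884 with a sample left out, the fewest without replicate 3 of 1 μM. At 0.3 μM against DMSO the 0 calls over all genes became 1 with DESeq2, 1 with the replicate block, 30 without the low count filter, 4 when replicate 3 of 0.3 μM was left out and 1 when replicate 2 of DMSO was, and none of these was among the 9 genes. The log2 fold changes whose sign turned when a sample was left out were those of MMP2 (-0.039 to 0.38), MMP14 (-0.031 to 0.12) and TIMP1 (-0.047 to 0.083) at 0.3 μM and of MMP14 (-0.0082 to 0.15) between the doses, none of them called. The cause was not tested. Same-numbered samples were correlated weakly at most (r from -0.03 to 0.09 across genes). These values were below the minimum of 0.1 set for pairing, so the numbers were not taken as pairs. At 0.3 μM against DMSO, however, all same-numbered r were positive (0.091, 0.072 and 0.025). Differently numbered samples in that comparison had r from -0.072 to 0.003, so a weak link by number may be present there. With the replicate block 2 of the 9 genes were called at 1 μM, since PLAUR had an adjusted p of 0.0540 (edgeR), and the counts for 0.3 μM and between the doses were 0 and 2. Depth limits MMP1 and MMP9, whose counts of 0 to 20 per library allow no more than wide intervals.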

Other observations

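Among the MMP genes at the edge of detection, chosen after their values were seen, MMP13 (collagenase 3) had 0 counts in all DMSO samples, 2, 1 and 0 at 0.3 μM and 5, 4 and 0 at 1 μM. MMP10 (stromelysin 2) had 0 counts in the DMSO and 0.3 μM samples and a sum of 6 at 1 μM. Without the low count filter, their adjusted p at 1 μM against DMSO was 0.111 and 0.239 by edgeR. MMP3 (stromelysin 1) summed to 14 counts in DMSO, 6 at 0.3 μM and 17 at 1 μM.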
